A study of Mus musculus with 17 samples.

Results

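The genes for the chains of collagen were followed in whole lungs of *NOS2*-/- and wild-type mice after intravenous lipopolysaccharide (LPS, endotoxin) or saline. Members were taken by symbol: every gene with a probe set of a single array gene symbol that begins Col, a number, a and a number, each represented by the probe set with the highest mean signal over all arrays. This gave 36 genes with 58 probe sets, of 12393 genes and 22626 probe sets tested on the Affymetrix MOE430A array, and 19 of the 36 had more than 1 probe set. A further 8 chains had no such probe set and were not analysed here (*Col24a1*, *Col27a1*, *Col6a4*, *Col6a5*, *Col6a6*, *Col8a2*, *Col23a1* and *Col28a1*). The arrays covered 17 male mice, 1 array for each. *NOS2*-/- mice lack inducible nitric oxide synthase in every cell, and the wild-type controls were C57BL/6J. Of the *NOS2*-/- mice, 3 were studied 22 h and 3 were studied 7 h past LPS, and 1 was studied 22 h past saline. Of the wild-type mice, 3 were studied 22 h and 3 were studied 7 h past LPS, and 4 were studied 22 h past saline. LPS was given at 20 mg/kg, and the sources used here give no age. The comparison of genotypes addressed how endotoxin-induced gene expression in the lung depends on NOS2.

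Collagens are secreted proteins in which chains wind around each other into a helix, and the chain genes fall into classes by what that helix builds. Fibrillar collagens such as types I, III and V form the load-bearing fibers of bronchi, vessels and septa; type IV forms the sheet of basement membranes; type VI forms beaded filaments around cells; and the fibril-associated, transmembrane and multiplexin collagens decorate fibers, cell surfaces and basement membranes. In the lung, fibroblasts make most fibrillar collagen, and the alveolar wall carries a fused epithelial and endothelial basement membrane.

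The collagen IV genes lie head to head in pairs. In the RefSeq promoter windows of the mouse GRCm38.p6 assembly, which span 300 bases around a gene start, 27 of the 36 genes were matched with 30 windows. The genes *Col1a1*, *Col2a1*, *Col5a2*, *Col4a3*, *Col9a3*, *Col12a1*, *Col14a1*, *Col22a1* and *Col26a1* were not matched. The windows of *Col4a1* (chr8:11312777-11313076, minus strand) and *Col4a2* (chr8:11312555-11312854, plus strand) overlapped by 78 bases, shown in capitals in each gene's own direction, 5′ to 3′. These genes are shown because they were the collagen IV genes whose signal was higher after LPS.
Col4a1: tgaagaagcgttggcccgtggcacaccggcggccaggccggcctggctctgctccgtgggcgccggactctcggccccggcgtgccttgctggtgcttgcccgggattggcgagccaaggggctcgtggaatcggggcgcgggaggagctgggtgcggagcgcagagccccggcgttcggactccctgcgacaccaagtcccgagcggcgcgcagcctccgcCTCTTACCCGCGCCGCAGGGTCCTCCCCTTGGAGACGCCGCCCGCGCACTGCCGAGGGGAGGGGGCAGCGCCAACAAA
Col4a2: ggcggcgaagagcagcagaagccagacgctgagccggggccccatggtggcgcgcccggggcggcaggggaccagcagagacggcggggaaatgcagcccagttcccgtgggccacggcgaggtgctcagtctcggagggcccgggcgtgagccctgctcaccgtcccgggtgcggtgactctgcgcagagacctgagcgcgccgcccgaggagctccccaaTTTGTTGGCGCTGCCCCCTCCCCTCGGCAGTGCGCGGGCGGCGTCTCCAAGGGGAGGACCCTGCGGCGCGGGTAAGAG
The windows of *Col4a5* and *Col4a6*, whose signal was lower after LPS in wild-type mice, lay 842 bases apart on chromosome X and shared no base. The windows of *Col1a2* (chr6:4505368-4505667, plus strand) and *Col3a1* (chr1:45311288-45311587, plus strand) are shown for fibrillar chains that fell, with capitals at CCAAT or its reverse complement ATTGG and at TATAA or its reverse complement TTATA, which overlap in *Col3a1*.
Col1a2: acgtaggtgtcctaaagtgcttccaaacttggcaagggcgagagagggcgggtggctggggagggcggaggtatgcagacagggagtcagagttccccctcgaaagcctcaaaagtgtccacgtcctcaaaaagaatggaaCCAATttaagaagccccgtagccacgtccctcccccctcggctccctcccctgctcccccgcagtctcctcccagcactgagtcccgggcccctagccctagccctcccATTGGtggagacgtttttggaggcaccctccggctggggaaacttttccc
Col3a1: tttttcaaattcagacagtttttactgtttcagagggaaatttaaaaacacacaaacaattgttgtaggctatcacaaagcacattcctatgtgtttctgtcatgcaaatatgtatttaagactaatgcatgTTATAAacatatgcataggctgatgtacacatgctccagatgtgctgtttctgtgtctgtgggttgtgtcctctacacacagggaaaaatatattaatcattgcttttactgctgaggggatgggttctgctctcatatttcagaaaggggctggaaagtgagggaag
CCAAT on either strand was in 12 of the 30 collagen windows, against 37.4% of all 32851 windows, and TATAA on either strand was in 7 (23.3%), against 24.9% of all windows. The share of G and C bases was 74.0% in the *Col4a1* window and 73.7% in the *Col4a2* window, against 61.0% for *Col1a2*, 37.7% for *Col3a1* and a median of 52.7% over all windows.

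A pair of libraries stood apart from the rest. The array of wild-type LPS 22 h mouse 2 correlated at 0.949 and 0.955 with the others of its group, whereas within the other replicated groups the correlations were 0.992 to 0.998. It departed across the whole array: it lay more than 0.5 above both other mice of its group in 2494 probe sets and below both in 3667, against at most 72 and 13 for either of those mice, and its values had the smallest standard deviation, below the 1.66 to 1.75 of the other arrays. Among the collagens it was high for low-signal genes such as *Col2a1*, at 9.11, against 7.78 and 7.93 in the other mice of the group, and *Col26a1*, at 7.94, against 6.59 and 6.60. The single *NOS2*-/- saline lung carried signal of other tissues: the squamous keratin *Krt4* was 14.21 there, against 8.26 to 8.65 in wild-type saline lungs, and the summed linear signal of 13 skeletal muscle genes was 18100, against 2870 to 3230. The sum of 10 cardiac muscle genes was 36600 in that lung, against 13500 to 17500 in wild-type saline lungs. Lung markers were present on every array, their summed linear signal over 7 genes lying between 93600 and 124000. The *Nos2* probe set read 8.85 to 9.25 in LPS-treated and 8.29 in saline-treated *NOS2*-/- lungs, and 8.19 to 9.06 in LPS-treated and 7.75 to 8.47 in saline-treated wild-type lungs. Its place relative to the deleted part of the gene is not stated in these sources, so that it checks no genotype. All values below are log2 signals, and differences are log2 fold changes with their standard error. Calls were made with limma where the Benjamini-Hochberg adjusted p, taken over 22626 probe sets, was under 0.05. The p-values measure the spread between these mice, whose number limits the precision.

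In wild-type mice, LPS lowered the signal of the interstitial fibrillar and beaded-filament collagens, and at 22 h that of 4 of the 6 collagen IV chains. At 22 h, 15 of the 36 genes were lower and 2 higher than in saline mice, against 20% of all probe sets lower and 12.8% higher (32.8% in either direction). The median difference was -0.14 over the 36 genes and 0 over all probe sets. At 7 h, 14 genes were lower and 2 higher, against 17.9% and 14.4% of all probe sets (32.3% together), with medians of -0.21 and -0.05. When mouse 2 of the LPS 22 h group was left out, 18 genes were lower and 3 higher at 22 h, against 21.7% and 19.5% of all probe sets, and 18 were lower and 4 higher at 7 h, against 26.7% and 19.4%. Both times were set against the same 4 saline mice. In whole lung, fewer cells of a type and less RNA per cell cannot be told apart.

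**Figure D1:**
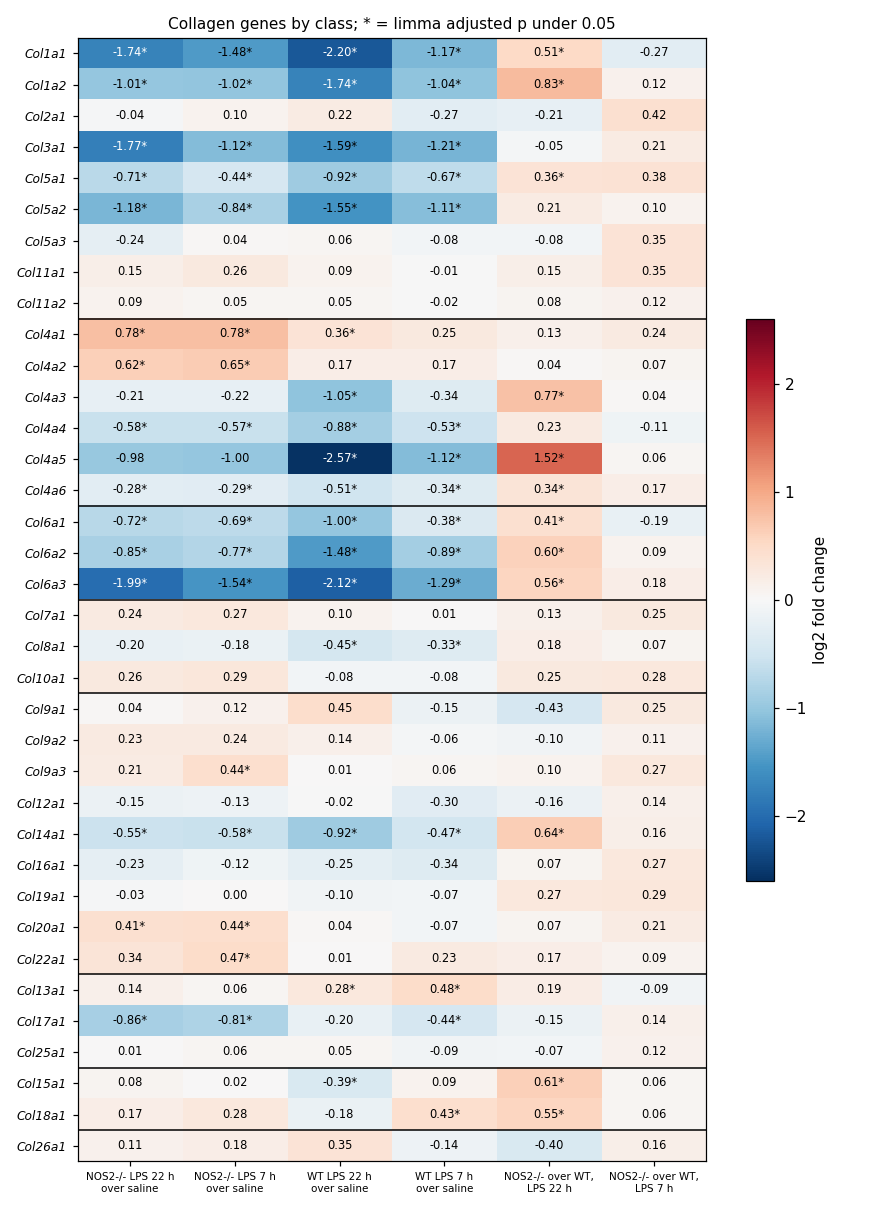
Log2 fold changes of the 36 collagen genes (rows, ordered and separated by class) in 6 comparisons (columns); an asterisk marks an adjusted p under 0.05, blue is lower and red higher in the first-named group. In the comparisons of LPS with saline the blue blocks are *Col1a1*, *Col1a2*, *Col3a1*, *Col5a1*, *Col5a2*, the type VI chains and *Col4a3* to *Col4a6*. *Col4a1* and *Col4a2* are red in all 4 of these comparisons.

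Of the 9 fibrillar chains measured, *Col1a1*, *Col1a2*, *Col3a1*, *Col5a1* and *Col5a2* fell at both times in wild-type mice. *Col1a1*, which encodes the alpha-1 chain of type I collagen, was 9.81, 9.48 and 9.62 in wild-type LPS 22 h lungs, 11.02, 10.56 and 10.43 in LPS 7 h lungs, and 11.76, 11.80, 11.95 and 11.84 in saline lungs. The 3 groups did not overlap. *Col1a1* fell by 2.20 ± 0.13 at 22 h (4.60-fold lower, adjusted p = 3.47e-09) and by 1.17 ± 0.13 at 7 h (adjusted p = 3.31e-06). Its partner *Col1a2*, the alpha-2 chain, was 10.91, 10.42 and 10.88 at 22 h, 11.63, 11.41 and 11.25 at 7 h, and 12.47, 12.32, 12.53 and 12.58 after saline, again without overlap between the groups. *Col1a2* fell by 1.74 ± 0.12 at 22 h (3.34-fold lower, adjusted p = 1.63e-08).

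*Col3a1*, whose homotrimer forms the thin fibers of vessels and septa, was 11.55, 11.14 and 12.02 in wild-type LPS 22 h lungs, 12.25, 11.93 and 11.69 in LPS 7 h lungs, and 13.07 to 13.24 in saline lungs. Both LPS groups lay below every saline mouse but overlapped each other, and the fall at 22 h was 1.59 ± 0.16 (adjusted p = 1.73e-06). The type V chains, which join type I chains in mixed fibrils and set fibril width, fell by 0.92 ± 0.09 (*Col5a1*) and 1.55 ± 0.18 (*Col5a2*) at 22 h. The other fibrillar chains, *Col2a1*, *Col5a3*, *Col11a1* and *Col11a2*, which are at home in cartilage or found at low levels in other tissues, were not called in any of the 10 comparisons. Their differences at 22 h ran between 0.05 and 0.22, but without wild-type LPS 22 h mouse 2 they ran between -0.20 and -0.04, so that their direction rested on that array. In that fit *Col2a1* and the others remained uncalled at 22 h, and *Col2a1* was called lower at 7 h. All 5 fibrillar chains that fell have at least 1 further probe set, and each further probe set was also called lower at 22 h, although for *Col1a1* it gave -0.65, against -2.20 for the chosen one.

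**Figure D2:**
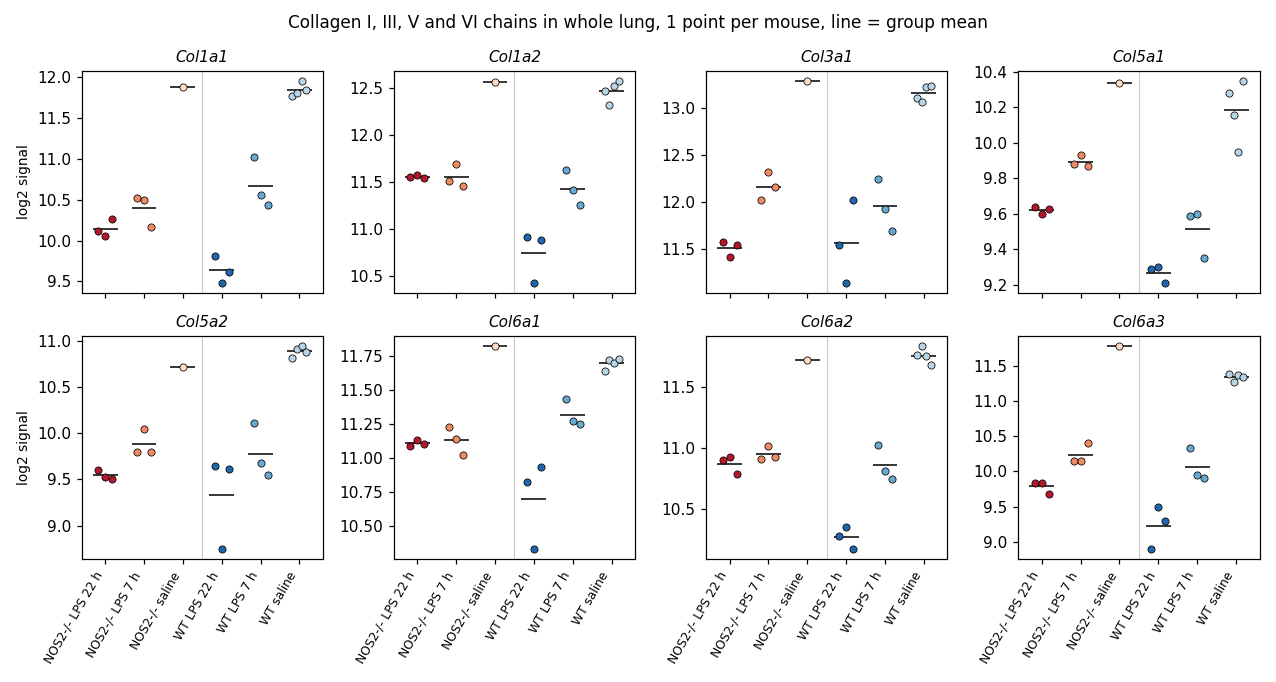
Log2 signal (vertical axes, scaled for each gene) of 8 chains of types I, III, V and VI in the 6 groups (horizontal axes), 1 point for each mouse and a line at the group mean. For all 8 chains every LPS-treated mouse lies below the saline mice of its genotype, and for *Col1a1*, *Col1a2*, *Col5a1* and the type VI chains the *NOS2*-/- LPS 22 h mice lie above the wild-type LPS 22 h mice.

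The type VI chains *Col6a1*, *Col6a2* and *Col6a3*, which assemble into a microfibril that links cells to the surrounding fibers, fell together. *Col6a3*, the longest of these chains, was 8.90, 9.49 and 9.29 in wild-type LPS 22 h lungs, 10.33, 9.95 and 9.90 in LPS 7 h lungs, and 11.39, 11.27, 11.38 and 11.35 in saline lungs. *Col6a2* was 10.28, 10.36 and 10.18 at 22 h, 11.03, 10.81 and 10.75 at 7 h, and 11.76, 11.83, 11.75 and 11.68 after saline. For both genes the 3 groups were fully separate, in the order saline, LPS 7 h and LPS 22 h. The log2 differences at 22 h were -2.12 ± 0.13 for *Col6a3* and -1.48 ± 0.08 for *Col6a2* (adjusted p = 5.39e-09 and 7.36e-10). *Col6a1* was 10.82, 10.33 and 10.93 at 22 h, against 11.64, 11.72, 11.70 and 11.73 after saline (adjusted p = 3.37e-06).

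The 6 collagen IV chains divided by their pairs. *Col4a1* and *Col4a2* encode the chains of the common basement membrane network, *Col4a3* and *Col4a4* pair with *Col4a5* in the alveolar and glomerular basement membrane, and *Col4a5* pairs with *Col4a6* in other epithelia and around smooth muscle. *Col4a1* was 13.41, 13.07 and 13.45 in wild-type LPS 22 h lungs, 13.26, 13.21 and 13.14 in LPS 7 h lungs, and 12.78, 12.96, 13.03 and 13.06 in saline lungs. Every LPS mouse was above every saline mouse, although mouse 2 of the 22 h group, at 13.07, was barely above the highest saline mouse. The rise at 22 h was 0.36 ± 0.09 (1.28-fold, adjusted p = 0.00781), and the 7 h difference of 0.25 was not called. On its other probe set *Col4a1* differed by 0.19 at 22 h (adjusted p = 0.0697). *Col4a2* differed by 0.17 ± 0.11 at 22 h (95% confidence interval -0.07 to 0.40, adjusted p = 0.286). When wild-type LPS 22 h mouse 2 was left out, *Col4a2* gave 0.32 (adjusted p = 0.00643) and *Col4a1* 0.48 (adjusted p = 8.8e-05) at 22 h. In that fit *Col4a1* was also called higher at 7 h.

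By contrast, *Col4a3*, *Col4a4*, *Col4a5* and *Col4a6* were lower at 22 h in wild-type mice. *Col4a5* was 8.52, 7.08 and 8.69 in wild-type LPS 22 h lungs, 9.59, 9.61 and 9.42 in LPS 7 h lungs, and 10.67, 10.51, 10.72 and 10.74 in saline lungs. No group overlapped another, and the low 7.08 was mouse 2. *Col4a5* fell by 2.57 ± 0.27 at 22 h (5.92-fold lower, adjusted p = 1.87e-06), and without that mouse by 2.06 (adjusted p = 7.83e-11). It had the largest difference of the 36 genes with all mice, but not without mouse 2, where *Col6a3* (-2.25) and *Col1a1* (-2.12) exceeded it. Its further probe set gave -1.93. *Col4a3*, *Col4a4* and *Col4a6* fell by 1.05 ± 0.13, 0.88 ± 0.07 and 0.51 ± 0.06 at 22 h. At 7 h *Col4a4*, *Col4a5* and *Col4a6* fell by 0.53, 1.12 and 0.34, and *Col4a3* differed by -0.34 without being called. Without wild-type LPS 22 h mouse 2, *Col4a3* was called lower at 7 h as well.

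**Figure D3:**
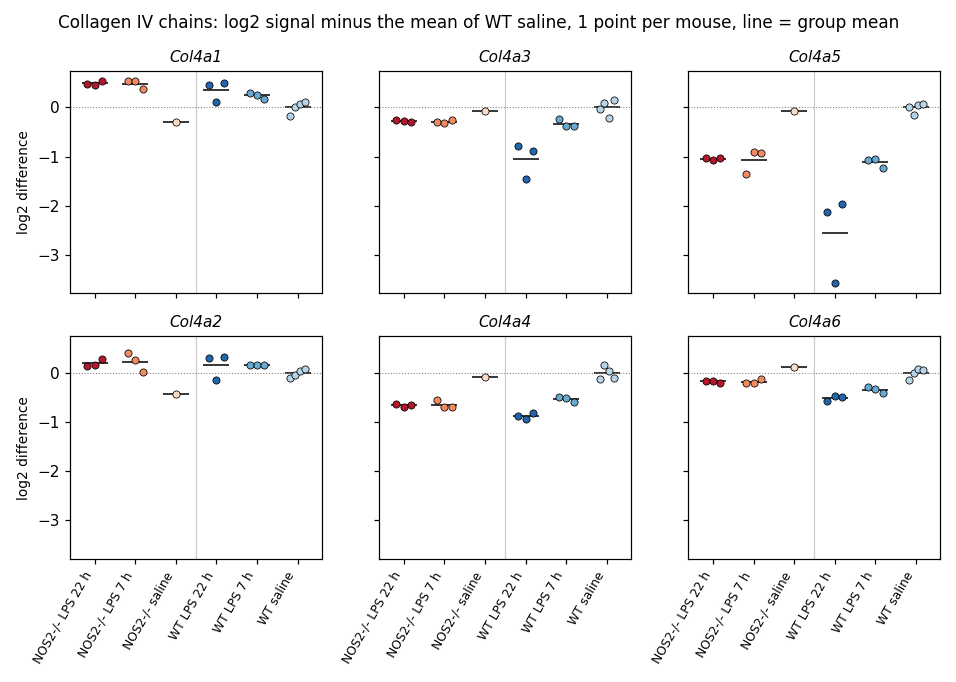
The 6 collagen IV chains as log2 signal minus the mean of the wild-type saline mice (vertical axes, shared scale) in the 6 groups (horizontal axes), 1 point for each mouse and a line at the group mean; columns hold the genes that lie head to head. *Col4a1* and *Col4a2* lie above 0 in nearly all LPS-treated mice, while *Col4a3* to *Col4a6* lie below 0 and lowest in wild-type LPS 22 h mice.

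Among the remaining 18 genes the calls were few. *Col14a1*, a fibril-associated chain of adult connective tissue, was 8.13, 7.62 and 8.17 in wild-type LPS 22 h lungs, against 8.86, 8.81, 8.95 and 8.95 in saline lungs, and fell by 0.92 ± 0.11 (adjusted p = 8.94e-06). *Col13a1*, a transmembrane collagen of cell adhesion sites, was 9.98, 9.85 and 9.82 at 22 h and 10.08, 10.18 and 10.00 at 7 h, against 9.52, 9.67, 9.71 and 9.53 after saline. It rose by 0.28 at 22 h and by 0.48 at 7 h (adjusted p = 0.0228 and 0.000498), with no overlap of either LPS group with the saline mice. *Col18a1*, the source of endostatin, rose by 0.43 ± 0.11 at 7 h (adjusted p = 0.00681) and differed by -0.18 at 22 h, where it was not called. The other multiplexin, *Col15a1*, fell by 0.39 ± 0.11 at 22 h (adjusted p = 0.0091). *Col8a1*, a network collagen of vessel walls, fell by 0.45 at 22 h on the chosen probe set, while its other probe set differed by 0.23 (adjusted p = 0.267). That positive value rested on mouse 2, at 7.88, against 7.18 and 7.10 in the other LPS 22 h mice, and was -0.02 without it. *Col17a1*, a hemidesmosome protein of stratified and airway epithelium, fell by 0.44 at 7 h. With all mice, none of the other fibril-associated chains was called against saline in wild-type mice. When mouse 2 was left out, *Col12a1* and *Col16a1* were called lower at both times (-0.31 and -0.50 at 22 h), *Col22a1* was called higher at 7 h, and *Col17a1* was also called lower at 22 h (-0.46).

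In *NOS2*-/- mice the reference was a single saline mouse, so that its own spread was taken from the other groups. At 22 h, 12 of the 36 genes were lower and 3 higher than in that mouse, against 16% of all probe sets lower and 11.6% higher (27.6% together), with medians of -0.10 over the 36 genes and 0.03 over all probe sets. At 7 h, 12 were lower and 5 higher, against 13.7% and 8.78% of all probe sets (22.5% together). Without wild-type LPS 22 h mouse 2, which enters these comparisons through the common spread, 13 were lower and 5 higher at 22 h and 13 were lower and 9 higher at 7 h, against 23.1%, 18.1%, 21.8% and 16.4% of all probe sets, with *Col4a5* called lower at both times. *Col1a1* was 10.12, 10.05 and 10.26 at 22 h and 10.52, 10.50 and 10.17 at 7 h, against 11.88 after saline, and fell by 1.74 ± 0.19 at 22 h (3.34-fold lower, adjusted p = 7.62e-06). *Col3a1* fell by 1.77 ± 0.25 and *Col6a3* fell by 1.99 ± 0.19 at 22 h. The same 5 fibrillar chains and all 3 type VI chains were called lower at both times.

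Of the collagen IV chains in *NOS2*-/- mice, *Col4a1* was 13.43, 13.41 and 13.50 at 22 h and 13.50, 13.50 and 13.33 at 7 h, against 12.66 after saline. It rose by 0.78 ± 0.14 at both times (1.72-fold). *Col4a2* was 12.53, 12.56 and 12.68 at 22 h and 12.79, 12.66 and 12.41 at 7 h, against 11.97, and rose by 0.62 ± 0.17 and 0.65 ± 0.17. The saline mouse lay below every one of the 4 wild-type saline mice for both genes. *Col4a4* and *Col4a6* were called lower at both times, with means at 22 h of 7.70 and 8.75, against 8.28 and 9.03 after saline. *Col4a5* differed by -0.98 ± 0.40 at 22 h (adjusted p = 0.0885), and *Col4a3* by -0.21 ± 0.19. Whether the *Col4a1* response was larger in *NOS2*-/- mice was tested directly, and the difference between the genotypes was 0.43 (95% confidence interval 0.07 to 0.79, adjusted p = 0.198).

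Set against the 4 wild-type saline mice, the *NOS2*-/- LPS 22 h mice had 12 genes lower and 3 higher, against 22.8% and 17.9% of all probe sets, and the LPS 7 h mice had 13 lower and 6 higher, against 21.3% and 15.4%. Of the 12 lower calls at 22 h 10 were shared with those against the *NOS2*-/- saline mouse, and of the 3 higher calls 1 was, *Col4a1* (0.49, adjusted p = 0.000564). *Col4a2* was no longer called, and neither was *Col20a1*, a fibril-associated chain whose difference from the *NOS2*-/- saline mouse was 0.41. *Col17a1* was 6.99 in the *NOS2*-/- saline lung, the one with squamous signal, against 6.43 to 6.61 in wild-type saline lungs, and its fall of 0.86 against that lung was likewise not called against the wild-type mice. The part of the squamous signal in this difference was not tested. *Col9a3* and *Col22a1* were called higher at 7 h against either reference, by 0.44 and 0.47 against the *NOS2*-/- saline mouse. Against the wild-type saline mice *Col4a4* (-0.65), *Col4a5* (-1.05, adjusted p = 0.00509) and *Col4a6* (-0.17) were called lower at 22 h. *Col4a3* (-0.28) was not called there. Neither was *Col14a1* (-0.28, adjusted p = 0.0567), which was called lower against the *NOS2*-/- saline mouse. *Col3a1* and *Col6a3* were lower by 1.64 and 1.56 than in the wild-type saline mice. These genes read 13.29 and 11.78 in the *NOS2*-/- saline mouse, against 13.07 to 13.24 and 11.27 to 11.39 in the wild-type saline mice.

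In wild-type mice 11 of the 36 genes were lower at 22 h than at 7 h and none higher, against 7.68% of all probe sets lower and 3.15% higher (10.8% together). These were *Col1a1* (-1.03 ± 0.14), *Col1a2* (-0.70 ± 0.13), *Col4a3* (-0.72 ± 0.14), *Col4a4* (-0.35 ± 0.08), *Col4a5* (-1.44 ± 0.29), the type VI chains (-0.59 to -0.83), *Col14a1* (-0.44 ± 0.12), *Col15a1* (-0.48 ± 0.11) and *Col18a1* (-0.61 ± 0.12). In *NOS2*-/- mice the only call was *Col3a1*, which was 11.58, 11.42 and 11.55 at 22 h, against 12.02, 12.32 and 12.16 at 7 h, a fall of 0.65 ± 0.18 (adjusted p = 0.0346). Over all probe sets 3.16% were lower and 4.65% higher there (7.81% together). With wild-type LPS 22 h mouse 2 left out, the *NOS2*-/- calls were 6, all lower, with *Col5a1*, *Col5a2*, *Col5a3*, *Col6a3* and *Col9a3* added, against 8.12% of all probe sets lower and 11.7% higher, and leaving out any other mouse gave 0 to 2 calls, with 0 in each fit that lacked a *NOS2*-/- LPS mouse or wild-type LPS 7 h mouse 2. Wild-type mice had 12 calls without mouse 2, all lower, against 7.73% of all probe sets lower and 7.41% higher. With all mice, the 11 genes that fell in wild-type mice differed by -0.45 to 0.06 in *NOS2*-/- mice. In wild-type mice, leaving out mouse 2 of the LPS 22 h group changed *Col4a5* to -0.94 and *Col14a1* to -0.27, both still called. A fit restricted to the wild-type LPS groups called only *Col1a1*. The share of all probe sets called in that fit is not given here, so that the count shows only how far the calls depend on the fit. With quantile normalization the calls over all probe sets were 1235 higher and 1676 lower, against 713 and 1738 as deposited.

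**Figure D4:**
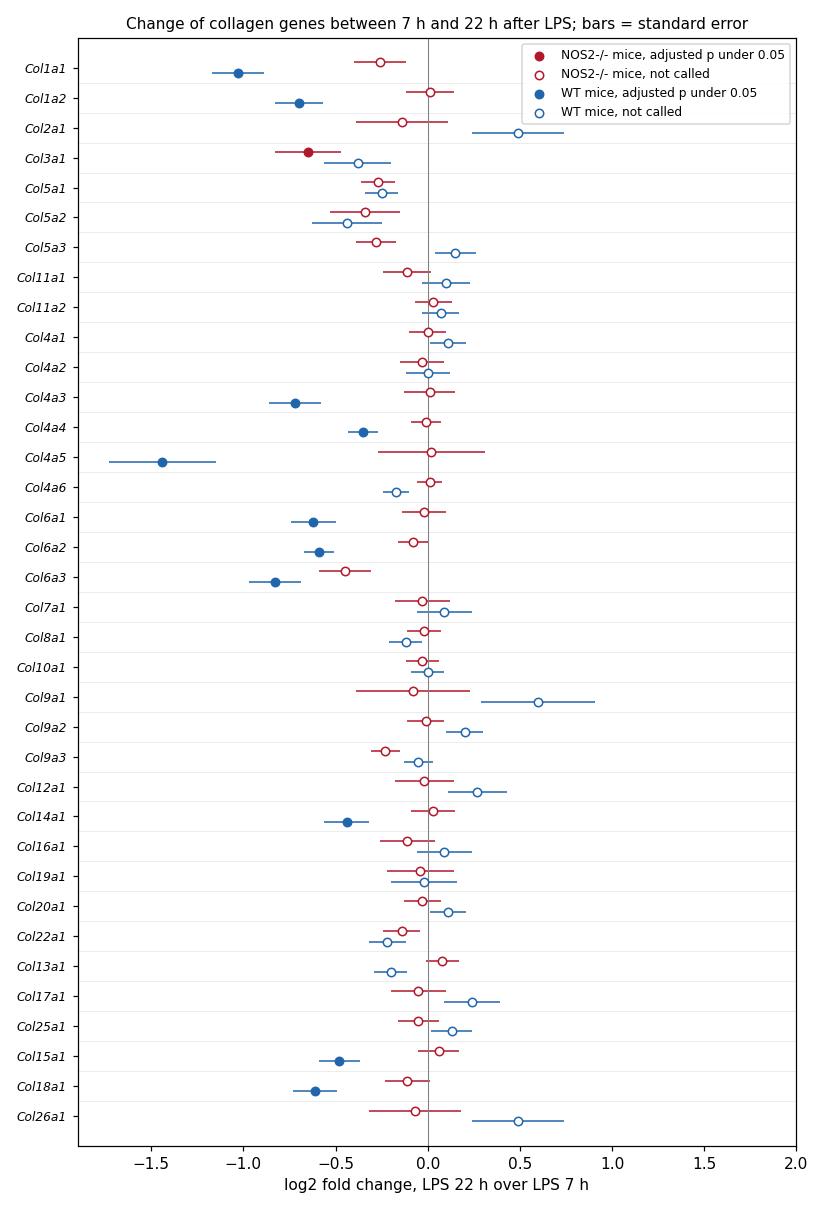
Log2 fold change between 22 h and 7 h after LPS (horizontal axis) for each collagen gene (vertical axis), *NOS2*-/- mice in red above wild-type mice in blue; bars are standard errors and filled points have an adjusted p under 0.05. The 11 filled blue points lie between -0.35 and -1.44, and the only filled red point is *Col3a1*.

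The difference of these changes between the genotypes was tested for each gene. It was called for *Col1a1* (0.77 ± 0.19, adjusted p = 0.0447), *Col1a2* (0.70 ± 0.18, adjusted p = 0.0447) and *Col6a2* (0.51 ± 0.11, adjusted p = 0.0262), against 2.49% of all probe sets called higher and 0.544% called lower (3.04% together). A positive value means a smaller fall, or a rise, in *NOS2*-/- mice. The genes next to the threshold were *Col4a3* (0.73, adjusted p = 0.0567), *Col4a5* (1.46, adjusted p = 0.0655) and *Col6a1* (0.60, adjusted p = 0.0674). Without wild-type LPS 22 h mouse 2, 7 genes were called, namely those 3 together with *Col4a3*, *Col4a5*, *Col6a1* and *Col15a1*. The calls depended on the probe set and the fit: the other probe sets of *Col1a1* and *Col1a2* gave -0.10 and 0.20 (adjusted p = 0.753 and 0.592), that of *Col4a5* gave 1.06 (adjusted p = 0.0209), and leaving out 1 mouse at a time ended the *Col6a2* call in 6 of 17 fits and the *Col1a1* and *Col1a2* calls in 12 each. The other probe set of *Col6a2* was not called either, while the mean of its probe sets was (0.42, adjusted p = 0.0403). With quantile normalization the only call was *Col6a1*, and the calls over all probe sets were 524 higher and 287 lower, against 564 and 123 as deposited.

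At 7 h after LPS no collagen was called different between *NOS2*-/- and wild-type lungs in limma, against 0.526% of all probe sets called higher and 1.48% lower (2.01% together). The differences ran between -0.27 and 0.42, and 8 of the 36 had an unadjusted p under 0.05, against 22.4% of all probe sets. *Col1a2* was 11.51, 11.69 and 11.46 in *NOS2*-/- lungs, against 11.63, 11.41 and 11.25 in wild-type lungs, and the groups overlapped. Without wild-type LPS 22 h mouse 2, whose spread enters the common fit, 10 genes were called higher and 1 lower at 7 h, against 12.8% and 14.1% of all probe sets. The higher ones included *Col5a1* (0.38), *Col5a3* (0.35), *Col2a1* (0.42) and *Col4a1* (0.24), and the lower one was *Col6a1* (-0.19).

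At 22 h after LPS 12 of the 36 genes were higher in *NOS2*-/- than in wild-type lungs and none was lower, against 9.63% of all probe sets higher and 6.81% lower (16.4% together). The median difference was 0.17 over the 36 genes and 0.01 over all probe sets. The 12 genes came from 5 classes: fibrillar (*Col1a1*, *Col1a2*, *Col5a1*), basement membrane (*Col4a3*, *Col4a5*, *Col4a6*), beaded filament (*Col6a1*, *Col6a2*, *Col6a3*), fibril-associated (*Col14a1*) and multiplexin (*Col15a1*, *Col18a1*). For each of them the 3 *NOS2*-/- mice lay above the 3 wild-type mice. These genes were picked by their call in this same comparison, so that the separation is no further evidence. Leaving out 1 mouse at a time, in 17 fits, ended the call of *Col6a1* in 3, of *Col1a1* and *Col5a1* in 2 each and of *Col6a3* in 1, and the fewest calls, 8, came without *NOS2*-/- LPS 22 h mouse 1.

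*Col1a2* was 11.55, 11.58 and 11.54 in *NOS2*-/- lungs, against 10.91, 10.42 and 10.88 in wild-type lungs, a difference of 0.83 ± 0.13 (1.77-fold, adjusted p = 0.000429). *Col1a1* was 10.12, 10.05 and 10.26, against 9.81, 9.48 and 9.62 in wild-type lungs, a difference of 0.51 ± 0.14 (adjusted p = 0.0205). The groups were separate for both genes, but the other probe sets of *Col1a1* and *Col1a2* were not called (0.10 and 0.31, adjusted p = 0.61 and 0.194). *Col3a1* did not follow: its *NOS2*-/- values of 11.58, 11.42 and 11.55 lay among the wild-type values of 11.55, 11.14 and 12.02, with a difference of -0.05 (95% confidence interval -0.43 to 0.32). *Col5a1* was 9.64, 9.60 and 9.63, against 9.29, 9.30 and 9.21 in wild-type lungs, and both further probe sets of *Col5a1* were also called higher.

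The type VI chains were higher in *NOS2*-/- lungs by 0.41 ± 0.12 (*Col6a1*), 0.60 ± 0.08 (*Col6a2*) and 0.56 ± 0.14 (*Col6a3*). *Col6a2* was 10.90, 10.93 and 10.79 in *NOS2*-/- lungs, against 10.28, 10.36 and 10.18 in wild-type lungs (1.52-fold, adjusted p = 0.000161). With all mice *Col6a2* was the only collagen whose whole LPS response at 22 h was called different between the genotypes (0.63, adjusted p = 0.0149), against 2.52% of all probe sets higher and 2.18% lower (4.7% together). On the other probe set of *Col6a2* this difference was not called. Its means were 10.71 at LPS 22 h and 11.48 after saline in *NOS2*-/- lungs, and 10.26 and 11.21 in wild-type lungs. The comparison of whole responses rests on the single *NOS2*-/- saline mouse. Leaving out mouse 2 of the wild-type LPS 22 h group, it was called for 8 collagens, higher for *Col6a2*, *Col1a2*, *Col4a3*, *Col4a5*, *Col7a1*, *Col15a1* and *Col20a1* and lower for *Col17a1*, against 5.87% and 9.34% of all probe sets. The *Col6a1* difference at 22 h was 0.23 (adjusted p = 0.0315) without wild-type LPS 22 h mouse 2.

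*Col4a5* showed the largest difference between the genotypes among the 36 genes at 22 h. It was 9.63, 9.58 and 9.63 in *NOS2*-/- lungs, against 8.52, 7.08 and 8.69 in wild-type lungs, which is 1.52 ± 0.29 higher (2.87-fold, adjusted p = 0.00205). Without wild-type LPS 22 h mouse 2 the difference was 1.01 (adjusted p = 7.14e-06), and the other probe set of *Col4a5* gave 1.05 (adjusted p = 0.000425). *Col4a3* was 10.09, 10.07 and 10.06, against 9.56, 8.89 and 9.46 in wild-type lungs, a difference of 0.77 ± 0.14. *Col4a6* was higher by 0.34 ± 0.07 on the chosen probe set. Its other probe set had means of 7.89 in *NOS2*-/- and 7.77 in wild-type LPS 22 h lungs, and the groups overlapped, with wild-type mouse 2 at 7.99. *Col4a1* and *Col4a2* differed by 0.13 and 0.04 (95% confidence intervals -0.08 to 0.35 and -0.21 to 0.29), with overlapping groups.

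*Col14a1*, *Col15a1* and *Col18a1* were higher in *NOS2*-/- lungs by 0.64 ± 0.12, 0.61 ± 0.11 and 0.55 ± 0.12. *Col15a1* was 8.93, 8.83 and 8.68 in *NOS2*-/- lungs, against 7.98, 8.38 and 8.27 in wild-type lungs. *Col18a1* was 10.24, 10.33 and 10.17, against 9.77, 9.35 and 9.97 in wild-type lungs. Without wild-type LPS 22 h mouse 2 all 12 genes were still called higher, with *Col7a1*, *Col16a1* and *Col22a1* in addition, against 11.2% of all probe sets higher and 15.4% lower. A fit restricted to both LPS 22 h groups, which estimates the spread from 6 mice, called only *Col1a2* and *Col6a2*, against 560 probe sets higher and 358 lower over the array.

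Marker lists of several cell types also differed between the groups, and their part in the collagen results was not tested. The summed linear signal of 15 fibroblast and adventitial genes, collagens left out, was 29200 to 30200 in *NOS2*-/- LPS 22 h lungs and 27500 to 28300 in LPS 7 h lungs, against 56900 in the *NOS2*-/- saline lung. In wild-type lungs it was 18900 to 27400 at 22 h and 24000 to 29400 at 7 h, against 51900 to 54400 after saline. Of these 15 genes 13 fell and none rose in wild-type lungs at 22 h, against 20% and 12.8% of all probe sets (12 and 2 without mouse 2), with *Inmt* (-3.23), *Mfap5* (-1.91) and *Mfap4* (-1.55) among the largest falls. At 22 h 8 of the 15 were higher and 2 lower in *NOS2*-/- than in wild-type lungs (median 0.36), against 9.63% and 6.81% of all probe sets. From 7 h to 22 h in wild-type lungs 6 fell and 1 rose, against 7.68% and 3.15% of all probe sets. The summed signal of 10 smooth muscle and pericyte genes was 10600 to 11200 in *NOS2*-/- LPS 22 h lungs and 6760 to 7330 in wild-type LPS 22 h lungs, and 7 of the 10 were called higher in *NOS2*-/- lungs and none lower, against 9.63% and 6.81% of all probe sets, among them *Myl9* (1.09). In wild-type lungs 8 of the 10 were lower at 22 h than at 7 h, against 7.68% of all probe sets. Cardiac muscle genes took the same directions: 6 of 10 were higher in *NOS2*-/- than in wild-type lungs at 22 h (median 0.49), against 9.63% of all probe sets. In wild-type lungs 7 of these 10 were lower at 22 h than at 7 h, against 7.68% of all probe sets. Of the 7 lung markers 4 were higher in *NOS2*-/- lungs at 22 h (median 0.29), against 9.63% of all probe sets. For 11 endothelial genes the sum was 26800 to 27500 in *NOS2*-/- LPS 22 h lungs and 26200 to 32900 in wild-type LPS 22 h lungs, against 51500 to 54400 in wild-type saline lungs. The endothelial genes did not share the later directions of the collagens. In wild-type lungs 6 were higher and 1 lower at 22 h than at 7 h, against 3.15% and 7.68% of all probe sets. Between the genotypes at 22 h 2 were higher and 4 lower in *NOS2*-/- lungs, against 9.63% and 6.81% of all probe sets.

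The genes that process, bind and degrade collagen gave a mixed picture beside the chains. Of 23 measured enzymes of procollagen processing and cross-linking, 10 fell and 1 rose in wild-type lungs at 22 h, against 20% of all probe sets lower and 12.8% higher, with a median of -0.12. Those that fell included *Pcolce2* (-3.24 ± 0.19), which enhances removal of the C-propeptide, the collagen chaperone *Serpinh1* (-1.39 ± 0.15) and the prolyl hydroxylase subunit *P4ha1* (-1.20 ± 0.17). The one that rose was *Lox* (0.93 ± 0.14), the lysyl oxidase that starts cross-linking, which is named here after its value was seen. In *NOS2*-/- lungs at 22 h *Serpinh1* fell by 1.66 against the saline mouse and by 1.64 against the wild-type saline mice. *Lox* rose by 1.72 against the *NOS2*-/- saline mouse, which read 9.80, against 10.97 to 11.47 in wild-type saline lungs, and against those it differed by 0.32 (adjusted p = 0.0793). Against wild-type LPS 22 h lungs *Pcolce2* was 1.54 higher and *Lox* was 0.61 lower.

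Of the 14 proteoglycans and fibril partners, 9 fell and 2 rose in wild-type lungs at 22 h (median -0.96), against 20% of all probe sets lower and 12.8% higher, with the mimecan gene *Ogn* at -4.10 ± 0.26 and periostin, *Postn*, at -1.94 ± 0.13. In *NOS2*-/- lungs at 22 h 6 of the 14 were higher than in wild-type lungs and 1 was lower, against 9.63% and 6.81% of all probe sets, with *Ogn* higher by 2.87 ± 0.28 and *Postn* by 1.11 ± 0.14. Of the 14 basement membrane partners of collagen IV, 11 fell and 1 rose in wild-type lungs at 22 h (median -0.54), against 20% and 12.8% of all probe sets. The laminin chain genes *Lama2* and *Lama3* fell by 1.53 and 1.39, and *Lama3* was 0.71 higher in *NOS2*-/- than in wild-type lungs at 22 h, where 8 of the 14 were higher and 1 lower, against 9.63% and 6.81% of all probe sets.

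Collagen-degrading enzymes and their inhibitors mostly rose. Of 11 genes, 8 rose and 2 fell in wild-type lungs at 22 h, against 12.8% of all probe sets higher and 20% lower, with a median of 0.81. Neutrophil markers moved with them, 9 of 9 being higher at 22 h (median 3.37), against 12.8% of all probe sets, and *Mmp8* is in both lists. The part of neutrophils in this rise was not tested. The inhibitor *Timp1* rose by 3.32 ± 0.12, the neutrophil collagenase *Mmp8* by 3.05 ± 0.11 and the gelatinase *Mmp9* by 1.93 ± 0.12, while *Timp2* fell by 1.65 ± 0.09. Between the genotypes at 22 h 4 of the 11 were higher and 2 lower in *NOS2*-/- lungs, against 9.63% and 6.81% of all probe sets. Without wild-type LPS 22 h mouse 2 these counts were 3 and 3. In *NOS2*-/- LPS 22 h lungs *Mmp8* and *Mmp9* were lower than in wild-type LPS 22 h lungs by 0.54 and 0.78, and the fibroblast protease gene *Fap* was 1.67 higher. Of 6 measured collagen receptors, 1 rose and 2 fell in wild-type lungs at 22 h, against 12.8% of all probe sets higher and 20% lower. The inhibitory receptor *Lair1* rose by 0.83, and the uptake receptor *Mrc2* and the kinase *Ddr2* fell by 0.96 and 0.54. The listed receptors *Itga1*, *Itga10*, *Itga11* and *Gp6* were not measured, and no result about receptors as a set is drawn from these counts.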

How the data were processed

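RNA of whole mouse lungs was hybridized to 17 Affymetrix MOE430A arrays, 1 for each mouse. The deposited log2 values are the authors' probe set signals: with the Bioconductor package affy they had corrected the background, normalized the arrays (medians 8.46 to 8.55) and computed 1 value per probe set. Its version and the methods chosen within it were not stated. The values were used without further scaling. All 17 value columns matched a sample, and 0 columns were left without one. Control probe sets (64 of 22690) were left out. GEO's platform table paired 20380 probe sets with 1 gene, 691 with several and 1555 with none. In R 4.3.3, limma 3.58.1 fitted 1 mean for each of the 6 groups over all arrays (lmFit, eBayes, prior degrees of freedom 3.75), so that groups share 1 estimate of the spread, and p-values were adjusted over 22626 probe sets. The following contrasts were tested: LPS against saline at both times and 22 h against 7 h in each genotype, genotype at both times, and the genotype difference of the time change and of the 22 h response. No filter on dim probe sets was set, and 25 of the 36 genes lay above the 40th percentile of mean signal. Any collagen could be named, with those called in at least 1 contrast described first by class, and in each related list up to 4 called genes of largest change per contrast. The collagens and the lists were chosen with earlier results of these data known. The script was tested on simulated data. Alternatives were other scalings, a filter, array weights, a fit of only the groups compared, other probe set rules, a replicate block, other thresholds and leaving out each mouse.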

Additional observations from a re-analysis of the deposited data

Results flagged for a closer look

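A test of the difference between the genotypes itself picked out 4 results. The change between 7 h and 22 h after LPS differed by 0.77 for *Col1a1*, 0.70 for *Col1a2* and 0.51 for *Col6a2*, each less negative in *NOS2*-/- than in wild-type mice. The 22 h response to LPS of *Col6a2* differed by 0.63, again less negative in *NOS2*-/- mice, where it rests on 1 saline mouse. For none of these 4 results was every probe set of the gene called. Among the 4 wild-type saline mice no collagen had a mouse set apart by Dixon's gap test.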

How the results depend on the processing

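The number of the 36 collagens called moved by more than 1.5 times in these comparisons. The counts in this section stand without the share of all probe sets called under the same setting. They show only how far the calls depend on the setting. For *NOS2*-/- against wild-type lungs at 7 h (0 as reported) it was 1 with quantile normalization, with array medians subtracted, with probe sets above the 40th percentile, with the mean of a gene's probe sets and with the replicate block, 18 with array weights and 11 with only the groups compared. For the same contrast at 22 h (12) it was 2 with only the groups compared and 6 at 1.5-fold. For the genotype difference in the time change (3) it was 1 with quantile normalization, 5 with array medians subtracted, 6 above the 40th percentile, 8 with array weights, 0 with only the groups compared, 1 with the replicate block and 0 at an adjusted p under 0.01. For that in the 22 h response (1) it was 2 with quantile normalization and the mean of probe sets, 3 with array medians subtracted and above the 40th percentile, 9 with array weights and 0 at 0.01. For *NOS2*-/- 22 h against 7 h (1) it was 2 above the 40th percentile and with the mean of probe sets, 8 with array weights, 5 with only the groups compared, and 0 with the replicate block and at 0.01. It was 24 with array weights and 25 with only the groups compared for *NOS2*-/- 22 h against saline (15), 10 at 0.01 and at 1.5-fold for *NOS2*-/- 7 h against saline (17), 8 at 1.5-fold for wild-type 7 h against saline (16), and 1 with only the groups compared for wild-type 22 h against 7 h (11). *Col8a1* reversed to 0.23 at 22 h in wild-type mice on its probe set of largest variance, a value that was -0.02 without wild-type LPS 22 h mouse 2. The cause of the other differences was not tested.

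Leaving out 1 mouse at a time gave 13 to 22 calls for wild-type 7 h against saline, 15 to 21 for wild-type 22 h, 13 to 22 for *NOS2*-/- 7 h and 12 to 18 for *NOS2*-/- 22 h. It gave 10 to 13 for wild-type 22 h against 7 h, 0 to 6 for the same in *NOS2*-/- mice, 0 to 11 and 8 to 15 for the genotypes at 7 h and 22 h, 0 to 7 for the difference in the time change and 1 to 8 for that in the response. Without wild-type LPS 22 h mouse 2 every collagen call made with all mice on the chosen probe sets was kept. Counts in the related and marker lists moved in either direction. Same-numbered mice deviated together, with a correlation over 0.1, in 4 of 30 pairs (-0.38 to 0.36). The numbers were not used to pair mice in the main fit. With groups this small and 1 deviant array, these correlations cannot exclude a pairing. The single *NOS2*-/- saline mouse and groups of 3 limit the precision.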
